A study of Mus musculus with 17 samples.

Results

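The liver X receptors (LXR) and 8 of their best known target genes were followed through the lungs of mice that drank perfluorooctanoic acid (PFOA). The 10 genes were Mylip, the receptors Nr1h3 (LXRα) and Nr1h2 (LXRβ), and the targets Abca1, Abcg1, Apoe, Pltp, Lpcat3, Smpdl3a and Srebf1, taken by symbol from the 31245 genes of the count table, and 10 of 10 passed the minimum of 20 counts that 26946 genes passed. Mylip was picked from these same libraries as the gene with the strongest rise on PFOA shared by the 3 genotypes, so its PFOA values are given as a description, without a test. The other 9 genes were added, with earlier results of these data known, to see whether LXR targets as a group were higher on PFOA.

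Lung RNA of 17 mice was sequenced. The wildtype mice (WT) were Sv/129 animals bought from Jackson. The other mice were PPARα null (KO) or carried human PPARα in place of mouse PPARα (KI). Both came from breeding pairs that were null for mouse PPARα and heterozygous for the human gene. In comparisons with WT, genotype and colony therefore cannot be told apart. Mice of every group had a diet modelled on what adults in America eat from 6 weeks of age, and 0.5% sucrose water for 14 weeks, either alone (vehicle) or with 6.2 μg/mL PFOA. There were 2 WT vehicle libraries and 3 libraries in each of the other 5 groups, 1 per animal, named below by animal number. Both sexes were in the WT and KI groups, and the 6 KO mice were female.

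LXRα and LXRβ are nuclear receptors that bind oxysterols and, paired with RXR, switch on genes that move cholesterol out of cells. ABCA1 and ABCG1 export cholesterol to lipoprotein particles, apolipoprotein E (Apoe) accepts it, and the phospholipid transfer protein PLTP remodels those particles. LPCAT3 puts polyunsaturated chains into phospholipids, SREBP1 (Srebf1) drives fatty acid synthesis, SMPDL3A is a secreted phosphodiesterase, and MYLIP (also called IDOL) is a ubiquitin ligase that sends lipoprotein receptors for degradation. In the lung, alveolar macrophages and type 2 cells handle the cholesterol and phospholipid of surfactant, and ABCA1, ABCG1 and LXR are known for keeping macrophages there from filling with lipid.

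LXR and RXR bind as a pair to a direct repeat of AGGTCA with 4 letters between the copies, known as DR4. Promoter windows of RefSeq (mouse GRCm38.p6, 250 bases before to 50 bases after each start site) were matched by symbol for 8 of the 10 genes, in 13 windows; Abcg1 and Smpdl3a had none. The repeat was searched on both strands with up to 3 of its 12 fixed letters changed, and 2 windows of 2 genes held a match, of Abca1 and Srebf1. Both are shown because they were the only matches found, with the match in capitals.
Abca1, chr4:53159935-53159974, plus strand: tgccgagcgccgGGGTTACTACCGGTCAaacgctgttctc
Srebf1, chr11:60210626-60210665, plus strand: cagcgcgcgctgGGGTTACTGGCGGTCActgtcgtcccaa
The Abca1 match lay 67 to 52 bases before the start site and the Srebf1 match 182 to 167 bases before the most downstream of 3 start sites, and each had 3 letters changed. Among all 32851 windows, 21.9% held such a match, and 3.02% one with at most 2 letters changed, so that a match of this kind was common. A match alone therefore does not tell whether a site is bound, which was not tested. Repeats outside the windows were not searched. The 100 bases before the start of Mylip are shown because Mylip had the largest PFOA difference of the 10 genes, and they held no match.
Mylip, chr13:45389642-45389741, plus strand: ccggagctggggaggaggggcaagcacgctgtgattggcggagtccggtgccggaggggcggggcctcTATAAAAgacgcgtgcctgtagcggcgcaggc
The capitals mark TATAAAA, 32 to 26 bases before the start, which 3.02% of all windows held on the strand of their gene before the start.

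The libraries held 4116116 to 9237385 counts, with a median of 7524817. In 15 libraries 74.4% to 80.4% of counts fell in protein-coding genes, and 2 vehicle libraries stood apart, with 65.3% in WT 122 and 61.3% in KO 137, so results are also given without them. The KO PFOA libraries shared an i5 index that no KO vehicle library had, so exposure and index cannot be told apart within KO. Ppara, the targeted gene, was at 4.38 to 7.19 CPM (counts scaled to library size after TMM normalization) in the 5 WT libraries, 8.82 to 11.7 in the 6 KO libraries and 9.08 to 20.4 in the 6 KI libraries, so the 6 libraries labelled KO did not have less of it than WT, and KO below means that label. The extent of the deletion in the KO allele is not given in the sources used here, and a count over the gene cannot check it.

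Per kilobase of exon and averaged over the 17 libraries, Apoe stood highest of the 10 genes (169 ± 44.6 CPM per kb, SD, n = 17), followed by Pltp (65.3 ± 11.98). Abca1 (22.1 ± 9.89), Smpdl3a (18.3 ± 5.07), Mylip (18.2 ± 7.71), Nr1h2 (16.1 ± 1.39), Srebf1 (12.2 ± 1.69) and Nr1h3 (10.5 ± 0.860) came next, then Abcg1 (9.36 ± 3.22) and, lowest, Lpcat3 (5.22 ± 1.22). Taking neighbours in this order, the 2 means differed by more than either gene's SD for Apoe and Pltp, Pltp and Abca1, Nr1h2 and Srebf1, and Abcg1 and Lpcat3. For the other neighbours the difference was smaller than the larger of the 2 SDs. Relative to its mean, the spread over libraries was narrow for both receptors and wide for Mylip and Abca1.

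Mylip (ENSMUSG00000038175, chr13:45389742-45412022, plus strand, mm10) was higher in every PFOA library than in every vehicle library of the study. In WT it measured 44.3 and 33.98 CPM on vehicle and 101, 70.4 and 57.8 CPM on PFOA. In KO the values were 25.6, 45.1 and 36.3 CPM on vehicle and 54.98, 84.6 and 62.5 CPM on PFOA, and in KI 52.6, 30.7 and 38.8 CPM on vehicle and 110.3, 87.3 and 62.9 CPM on PFOA. The highest vehicle value was that of KI 102 and the lowest PFOA value that of KO 52, and these were only a few CPM apart. By group mean the order was KI PFOA (86.8 ± 23.7, SD, n = 3), WT PFOA (76.4 ± 22.2, n = 3), KO PFOA (67.3 ± 15.4, n = 3), KI vehicle (40.7 ± 11.1, n = 3), WT vehicle (39.2 ± 7.32, n = 2) and KO vehicle (35.7 ± 9.81, n = 3). The 3 PFOA groups overlapped one another, as did the 3 vehicle groups. The log2 fold change was 0.99 (SE 0.15) over the 3 genotypes together, 0.96 (SE 0.30) in WT, 0.91 (SE 0.26) in KO and 1.10 (SE 0.26) in KI, and without WT 122 and KO 137 it was 0.90 over the 3 genotypes. These are the values that the gene was picked on.

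**Figure D1:**
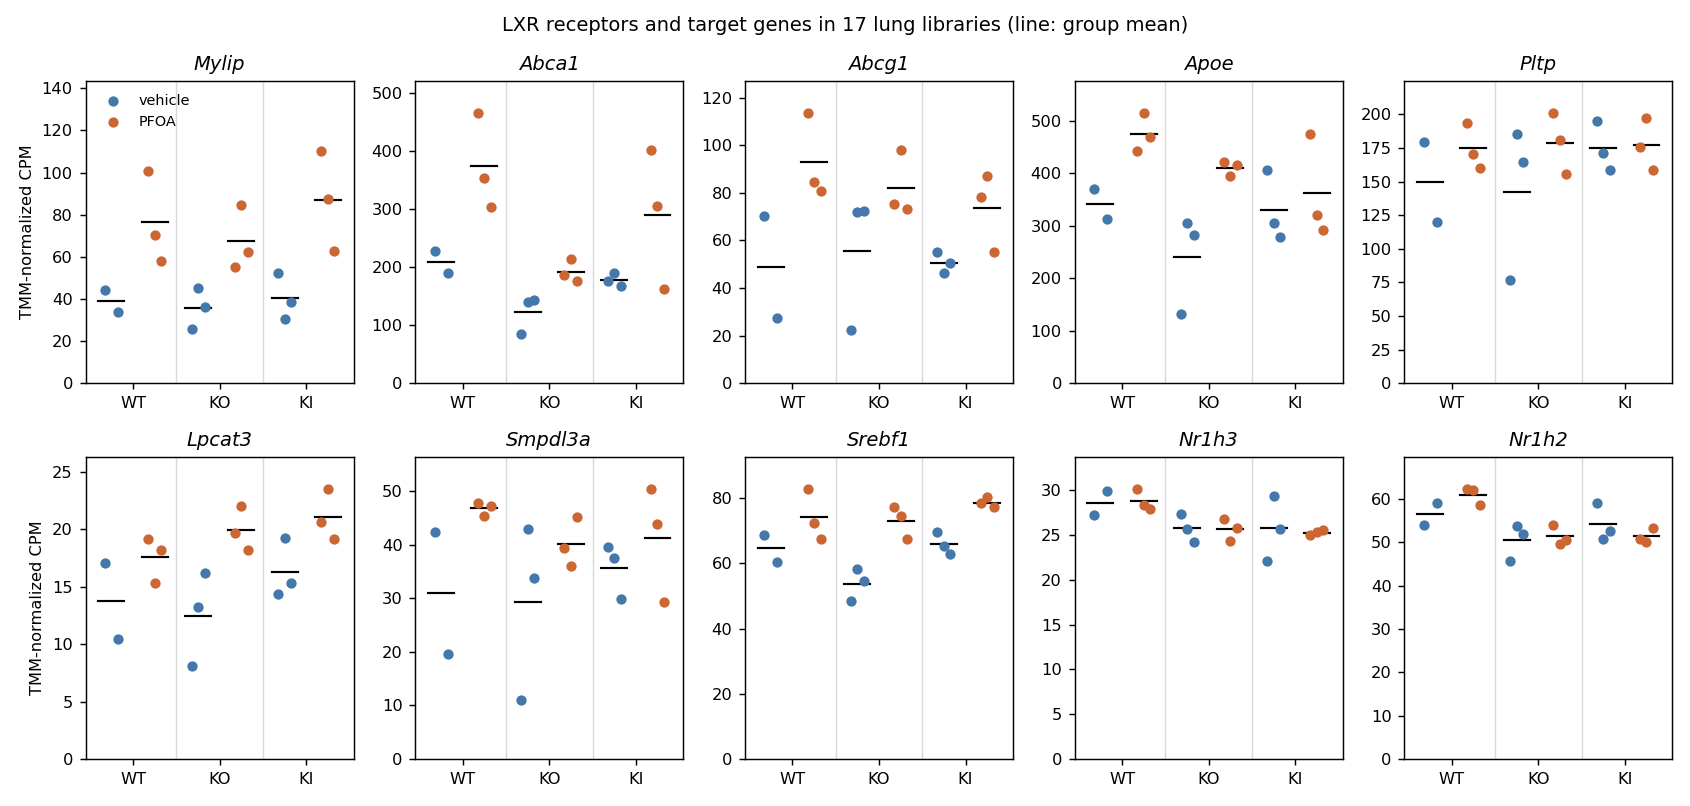
Level of each of the 10 genes in each of 17 lung libraries, in TMM-normalized CPM from 0, by genotype and exposure (blue vehicle, orange PFOA), with 1 point per library and a line at the group mean. Mylip, which was picked on this contrast, shows no overlap between vehicle and PFOA in any genotype. Abcg1 shows none either, by small gaps in KO and KI, and Nr1h3 and Nr1h2 overlap in each. The share of all genes without overlap in every genotype is not given here.

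Among the genes of cholesterol export and its carriers, 3 of 4 (Abca1, Abcg1 and Apoe) were higher on PFOA at an unadjusted p under 0.05 over the 3 genotypes together, and Pltp was not. No gene of the whole table was called there by edgeR's quasi-likelihood test at a Benjamini-Hochberg adjusted p under 0.2 and a fold over 2 (percent called 0), with 2228 of 26946 genes at an unadjusted p under 0.05 and 26 called by DESeq2. Abca1 (ENSMUSG00000015243, chr4:53030787-53159895, minus strand), the exporter of cholesterol and phospholipid to lipid-poor particles, measured 228 and 189.97 CPM in WT on vehicle and 465, 355 and 303 CPM on PFOA. In KO it measured 84.95, 139 and 143 CPM and 186, 214 and 177 CPM, and in KI 176, 189 and 167 CPM and 402, 306 and 162 CPM, again vehicle before PFOA. The PFOA libraries lay above the vehicle libraries in WT and KO, while in KI 1 of the 3 PFOA libraries, 139, was below the vehicle libraries and the other 2 were well above them. The log2 fold change of Abca1 was 0.73 (SE 0.15, 95% interval 0.42 to 1.03), or 1.65-fold, with an unadjusted p of 7.33e-05 and an adjusted p of 0.289. DESeq2 gave an adjusted p of 0.0112 at a fold under 2, and over all alternatives the adjusted p ran from 0.0112 to 0.646 and the log2 fold change from 0.62 to 0.82. Permuting exposure within genotype in all 4000 ways gave an exact two-sided p of 0.00150.

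Abcg1 (ENSMUSG00000024030, chr17:31057675-31117988, plus strand), which passes cholesterol on to mature particles, measured 70.3 and 27.4 CPM on vehicle and 113, 84.4 and 80.9 CPM on PFOA in WT. The KO libraries held 22.3, 71.7 and 72.4 CPM on vehicle and 75.4, 98.01 and 73.1 CPM on PFOA, and the KI libraries 54.9, 46.2 and 50.3 CPM on vehicle and 78.4, 86.9 and 55.03 CPM on PFOA. Vehicle and PFOA did not overlap in any genotype, although in KO and KI the nearest pair of values differed by under 1 CPM, and the lowest values were those of WT 122 and KO 137. Over the 3 genotypes the log2 fold change was 0.65 (SE 0.20, 95% interval 0.24 to 1.06, adjusted p = 0.466, edgeR), and 0.39 without those 2 libraries. The exact permutation p was 0.000250, the smallest that this design can give. An rRNA gene lies inside Abcg1 on the same strand, and reads of the pair may be mixed.

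Apoe (ENSMUSG00000002985, chr7:19696109-19699188, minus strand), the lipoprotein component that takes up exported cholesterol, was at 371 and 314 CPM on vehicle and 442, 514 and 469 CPM on PFOA in WT. It was at 131, 305 and 282 CPM on vehicle and 422, 395 and 416 CPM on PFOA in KO, and at 406, 304 and 279 CPM on vehicle and 475, 321 and 292 CPM on PFOA in KI. The WT and KO groups did not overlap between exposures and the KI groups did, with KI vehicle 102 above 2 of the 3 KI PFOA libraries. PFOA minus vehicle came to 0.46 on the log2 scale (SE 0.15, 95% interval 0.14 to 0.78, adjusted p = 0.468, edgeR), it was 0.30 without WT 122 and KO 137, and the exact permutation p was 0.00600.

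Pltp (ENSMUSG00000017754, chr2:164839518-164857711, minus strand) measured 179.6 and 119.7 CPM on vehicle and 194, 171 and 160.4 CPM on PFOA in WT, 76.7, 186 and 165 CPM and 201, 181 and 155 CPM in KO, and 195, 171 and 159 CPM and 175, 197 and 159 CPM in KI. The exposures overlapped in the 3 genotypes, and only WT 122 and KO 137 lay far below the rest. For Pltp the log2 fold change was 0.19 (SE 0.14, 95% interval -0.097 to 0.47, unadjusted p = 0.186, edgeR; exact permutation p = 0.183), and 0.0094 without these 2 libraries. Ctsa overlaps Pltp on the opposite strand, and since the use of strand in counting is not given in the sources used here, reads of the pair cannot be told apart.

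The 3 targets that act on phospholipids and fatty acids were higher on PFOA at an unadjusted p under 0.05, with smaller differences than Abca1. Lpcat3 (ENSMUSG00000004270, chr6:124663027-124704418, plus strand), the enzyme that remodels phospholipid chains, measured 17.04 and 10.5 CPM on vehicle and 19.1, 15.3 and 18.2 CPM on PFOA in WT, 8.06, 13.2 and 16.2 CPM and 19.7, 22.03 and 18.2 CPM in KO, and 14.3, 19.2 and 15.3 CPM and 20.7, 23.5 and 19.1 CPM in KI. In KO the exposures did not overlap, and in WT and KI they did. Its log2 fold change over the 3 genotypes was 0.46 (SE 0.13, 95% interval 0.19 to 0.74, unadjusted p = 0.00211, adjusted p = 0.438, edgeR), and the exact permutation p was 0.00225. DESeq2 gave an adjusted p of 0.162, within a range of 0.162 to 0.810 over the alternatives, again at a fold under 2. Emg1 overlaps Lpcat3 on the opposite strand.

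Srebf1 (ENSMUSG00000020538, chr11:60199089-60222581, minus strand), the lipogenic transcription factor, measured 68.7 and 60.6 CPM on vehicle and 82.8, 72.5 and 67.4 CPM on PFOA in WT. It measured 48.6, 58.4 and 54.6 CPM on vehicle and 77.3, 74.7 and 67.5 CPM on PFOA in KO, and 69.8, 65.4 and 62.8 CPM on vehicle and 78.5, 80.4 and 77.2 CPM on PFOA in KI. The groups did not overlap in KO and KI, and in WT only PFOA library 65 fell below a vehicle library. The log2 fold change was the smallest of the 6 genes under an unadjusted p of 0.05 but had the narrowest error, 0.30 (SE 0.074, 95% interval 0.15 to 0.46, unadjusted p = 0.000494, adjusted p = 0.383, edgeR). DESeq2 gave an adjusted p of 0.0220, within a range of 0.0220 to 0.755 over the alternatives, at a fold of 1.24 in edgeR, and the exact permutation p was 0.000750. Rai1 overlaps Srebf1 on the opposite strand, and 2 miRNA genes lie within it.

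Smpdl3a (ENSMUSG00000019872, chr10:57794335-57811830, plus strand) was at 42.3 and 19.6 CPM on vehicle and 47.9, 45.4 and 47.3 CPM on PFOA in WT, 11.1, 43.04 and 33.8 CPM and 39.4, 36.1 and 45.1 CPM in KO, and 39.7, 37.5 and 29.9 CPM and 50.4, 43.9 and 29.3 CPM in KI. WT 122 and KO 137 were again the lowest libraries, and vehicle and PFOA overlapped in KO and KI. The log2 fold change of 0.40 (SE 0.19, 95% interval 0.00013 to 0.79, unadjusted p = 0.0499, edgeR; exact permutation p = 0.0367) was 0.14 without these 2 libraries, with an unadjusted p of 0.188.

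Neither receptor gene differed between PFOA and vehicle beyond the spread. Nr1h3 (ENSMUSG00000002108, chr2:91184061-91202834, minus strand) was at 27.3 and 29.9 CPM on vehicle and 30.1, 28.3 and 27.9 CPM on PFOA in WT, 27.4, 25.7 and 24.2 CPM and 26.8, 24.4 and 25.9 CPM in KO, and 22.1, 29.4 and 25.7 CPM and 24.99, 25.3 and 25.6 CPM in KI. Nr1h2 (ENSMUSG00000060601, chr7:44549616-44553951, minus strand) was at 53.9 and 59.1 CPM and 62.3, 62.1 and 58.6 CPM in WT, 45.8, 53.7 and 51.96 CPM and 54.1, 49.7 and 50.5 CPM in KO, and 59.1, 50.9 and 52.7 CPM and 50.8, 50.2 and 53.2 CPM in KI, in the same order. Vehicle and PFOA overlapped for both genes in each genotype. The log2 fold change was -0.0083 for Nr1h3 (95% interval -0.17 to 0.15, p = 0.915, edgeR; exact permutation p = 0.937) and 0.012 for Nr1h2 (95% interval -0.13 to 0.16, p = 0.859, edgeR; exact permutation p = 0.630). The sign of the Nr1h2 value changed with the scaling of the libraries, and that of Nr1h3 without WT 122 and KO 137. A processed transcript shares the strand of Nr1h3 and a snRNA gene lies on the other.

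**Figure D2:**
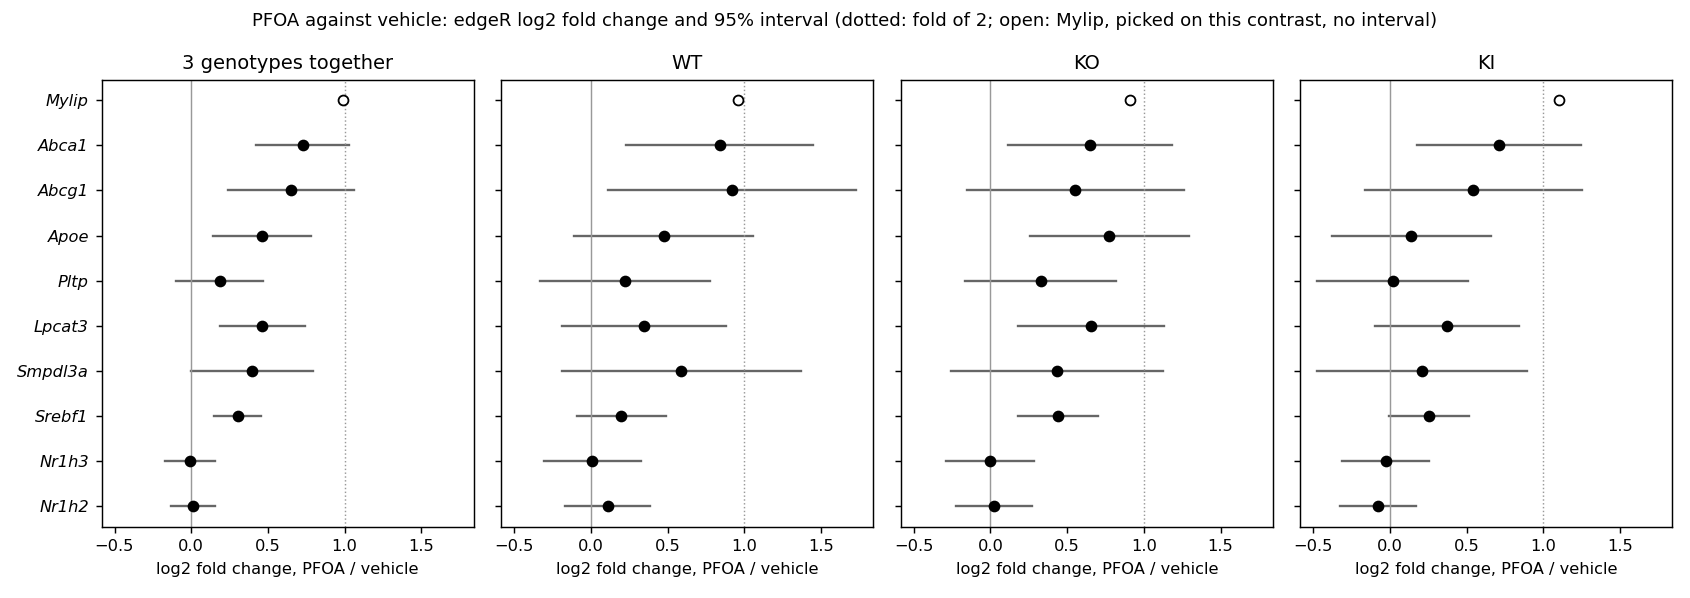
Log2 fold change of PFOA against vehicle for each of the 10 genes, with its 95% interval from edgeR, over the 3 genotypes together and within WT, KO and KI. The vertical lines mark 0 and a fold of 2, and the open point is Mylip, drawn without an interval. The targets Abca1 (0.73), Abcg1 (0.65), Lpcat3 (0.46) and Apoe (0.46) lie to the right of 0 over the 3 genotypes and both receptors lie close to 0.

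Of the 9 genes other than Mylip, 8 had a log2 fold change above 0 over the 3 genotypes and 6 were higher at an unadjusted p under 0.05, where 3.81% of all genes were. None was lower, and none was called by edgeR or DESeq2. The 9 genes were chosen with earlier results of these data known, so these counts are a description and not an independent check. The median log2 fold change of the 9 genes was 0.40, beside -0.012 over all genes tested. Without WT 122 and KO 137 the median was 0.26 and 5 of 9 were higher at that p, beside 3.33% of all genes. The 5 were Abca1 (0.62), Abcg1 (0.39), Lpcat3 (0.32), Apoe (0.30) and Srebf1 (0.26), and Smpdl3a was no longer among them.

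Within single genotypes, 2 of the 9 genes were higher at an unadjusted p under 0.05 in WT (all genes 3.12%), 4 in KO (all genes 3.73%) and 1 in KI (all genes 1.46%). Those in WT were Abca1 (0.84, SE 0.29) and Abcg1 (0.92, SE 0.39), those in KO were Abca1 (0.65, SE 0.26), Apoe (0.78, SE 0.25), Lpcat3 (0.66, SE 0.23) and Srebf1 (0.44, SE 0.12), and that in KI was Abca1 (0.71, SE 0.26). Called genes numbered 0 of 10 in each genotype by edgeR and by DESeq2, as for all genes by edgeR (0% in each, with 1979 genes in WT, 2637 in KO and 699 in KI at an unadjusted p under 0.05 and 24, 68 and 1 called by DESeq2, in the same order). Without WT 122 and KO 137 the numbers higher were 1 in WT, 3 in KO and 4 in KI. Of all 25367 genes then tested, 878, 1259 and 1245 passed at that p in either direction, in the same order. For all genes the KI number thus rose from 699, although no KI library was left out. Counted by libraries that did not overlap, the 9 genes gave 4 in WT (Abca1, Abcg1, Apoe and Smpdl3a), beside 11.7% of all genes, 5 in KO (Abca1, Abcg1, Lpcat3, Apoe and Srebf1), beside 6.82%, and 2 in KI (Abcg1 and Srebf1), beside 4.45%.

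Single libraries set much of the size of some of these values. In WT, Abcg1 ran from 0.41 without vehicle 122 to 1.76 without vehicle 107, Smpdl3a from 0.15 to 1.26 and Lpcat3 from 0.051 to 0.75, and without 107 Abcg1 and Smpdl3a were called (adjusted p = 0.0734 and 0.186, edgeR), with a single vehicle library left whose spread is taken from the other groups. In KO, the values without vehicle 137 were 0.19 for Abcg1, 0.065 for Smpdl3a and 0.032 for Pltp. In KI, Abca1 was 0.40 without PFOA library 57 and 0.996 without PFOA library 139.

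The PFOA effect was set side by side between genotypes for the 9 genes. Against WT, genotype and colony cannot be told apart, and in KO all mice were female and exposure went with i5 index. The comparison therefore cannot say whether PPARα mattered to the effect. Abca1 had log2 fold changes of 0.84 (WT), 0.65 (KO) and 0.71 (KI), Abcg1 of 0.92 (WT), 0.55 (KO) and 0.54 (KI), and Lpcat3 of 0.35 (WT), 0.66 (KO) and 0.37 (KI). Apoe had 0.47 (WT), 0.78 (KO) and 0.14 (KI), and Mylip had 0.96 (WT), 0.91 (KO) and 1.10 (KI), given without a test. No difference of effects between genotypes reached an unadjusted p of 0.05 in any of the 9 genes for KO against WT, KI against WT or KO against KI (lowest unadjusted p 0.211, 0.305 and 0.0845, adjusted p of at least 0.774, 1 and 0.914, edgeR interaction terms). The differences ran from -0.37 to 0.31, from -0.38 to 0.056 and from -0.061 to 0.64 on the log2 scale.

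Markers of several immune cell types were also higher on PFOA in these libraries, some of them at an unadjusted p under 0.05. Of 10 alveolar macrophage markers, 10 had a log2 fold change above 0 over the 3 genotypes, with a median of 0.43 (0.22 without WT 122 and KO 137), and 2 an unadjusted p under 0.05, Chil3 (0.95) and Mrc1 (0.43). Their summed level was 194 to 406 CPM on vehicle and 326 to 465 CPM on PFOA in WT, 131 to 365 CPM and 379 to 436 CPM in KO, and 269 to 288 CPM and 293 to 400.3 CPM in KI. The lowest sums were those of WT 122 and KO 137. Alveolar macrophages are known to express several of the LXR genes. Of 10 interstitial macrophage and monocyte markers 4 were higher at that p (median 0.35), of 6 T and NK cell markers 6 (median 0.86) and of 5 neutrophil markers 4 (median 1.31). Without WT 122 and KO 137 these were 0 of 10 (median 0.23), 5 of 6 (0.80) and 5 of 5 (1.42), in the same order. Of all genes 3.81% were higher at that p, and 3.33% without these 2 libraries. The summed T and NK cell level was 5.88 to 12.2 CPM on vehicle and 16.2 to 24.1 CPM on PFOA in WT, 14.5 to 20.8 CPM and 32.6 to 53.1 CPM in KO, and 17.6 to 25.6 CPM and 23.6 to 34.8 CPM in KI, with overlap in KI alone. Neutrophil sums were 14.2 to 33.6 CPM and 13.7 to 38.1 CPM, 16.5 to 25.9 CPM and 48.5 to 68.00 CPM, and 15.6 to 34.6 CPM and 17.8 to 50.9 CPM, in the same order, with overlap in WT and KI. Of 8 type 2 cell markers, which define lung, 0 were higher at that p (median 0.22, and 0.043 without WT 122 and KO 137), and their sum was at least 3329 CPM in every library. Lower at that p were 3 of 4 club cell markers (median -0.46) and 4 of 5 ciliated cell markers (median -0.56), beside 4.46% of all genes. Without WT 122 and KO 137 these were 1 of 4 (median -0.22) and 0 of 5 (median -0.21), beside 2.31%. In the lists for type 1, endothelial, B, erythroid, fibroblast and cardiac muscle cells, at most 1 gene of a list passed. Values above 0 over the 3 genotypes were not particular to macrophages. They were found in 8 of 8 type 2, 6 of 6 endothelial, 5 of 5 fibroblast and 5 of 6 type 1 markers. The numbers were 4 of 4 for B, 5 of 7 for erythroid, 4 of 5 for cardiac muscle, 0 of 4 for club and 0 of 5 for ciliated cells. Without WT 122 and KO 137 the median was 0.019 for endothelial, 0.014 for fibroblast and 0.038 for type 1 markers. No marker was at 0 in any group. Their part in the LXR values was not tested, and in bulk lung a different number of cells and a different amount of RNA per cell cannot be told apart.

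Between genotypes, with both exposures together, 0 of the 10 genes were called by edgeR or DESeq2 in any comparison, beside 2.38% of all genes for KO against WT, 1.36% for KI against WT and 0.00742% for KO against KI. At an unadjusted p under 0.05 the counts were 2 of 10 (both lower), 0 and 2 (both lower), where 3479, 2601 and 1290 of all genes passed in either direction. Abca1 was the 1 gene with an adjusted p under 0.2 by edgeR, lower in the libraries labelled KO than in WT, as 2.71% of all genes were at any fold. On vehicle it stood at 122 ± 32.4 CPM in KO (SD, n = 3) and 209 ± 26.8 CPM in WT (n = 2), and on PFOA at 192 ± 19.2 CPM in KO and 374 ± 82.8 CPM in WT (n = 3 each). Every KO library was below every WT library within either exposure, and on vehicle also below every KI library. The share of all genes that separate by genotype in this way is not given here, so nothing is read from the separation. For exposure in WT, also with 2 against 3 libraries, 11.7% of all genes separated as higher. The log2 difference KO minus WT was -0.88 (SE 0.18, 95% interval -1.25 to -0.50, adjusted p = 0.0110, edgeR; 0.000270 in DESeq2, range 0.000270 to 0.187 over the alternatives), short of a fold of 2, and -0.86 without WT 122 and KO 137. Against KI it was -0.56 (SE 0.17, adjusted p = 1), and KI minus WT was -0.31 (SE 0.18, adjusted p = 0.649, edgeR).

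Nr1h2 was the second gene lower in KO than in WT at an unadjusted p under 0.05, by a small amount. Its log2 difference was -0.21 (SE 0.085, adjusted p = 0.262, edgeR; 0.142 in DESeq2, range 0.142 to 0.585 over the alternatives), and KO libraries were below WT libraries on vehicle and on PFOA. Apoe showed the same order of libraries, with -0.35 (SE 0.19, adjusted p = 0.459, edgeR). Srebf1 on vehicle, and Nr1h3 and Smpdl3a on PFOA, also had every KO library below every WT library. Again no share of all genes is given for this order. Srebf1 was lower in KO than in KI at an unadjusted p under 0.05, with -0.19 (SE 0.087, adjusted p = 1). Mylip, whose genotype comparisons took no part in its choice, gave -0.15 for KO minus WT (SE 0.19, adjusted p = 0.812), 0.12 for KI minus WT (SE 0.18, adjusted p = 0.938) and -0.28 for KO minus KI (SE 0.18, adjusted p = 1), and its genotype groups overlapped within each exposure. Without WT 122 and KO 137, 4 of 9 genes were lower in KI than in WT at an unadjusted p under 0.05, as were 5.93% of all genes: Abca1 (-0.39), Abcg1 (-0.41), Apoe (-0.29) and Nr1h2 (-0.17).

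Further genes of the pathway were read from 5 lists, 56 genes in all, of which 53 passed the filter and none was called on PFOA by edgeR. The lists too were chosen with earlier results of these data known. Of 19 tested genes in a list of other LXR targets, 9 were higher at an unadjusted p under 0.05, beside 3.81% of all genes, and 0 lower, with a median log2 fold change of 0.25. Without WT 122 and KO 137, 7 of the 19 were higher, beside 3.33%, and the median was 0.16. The 4 with the lowest p were lipoprotein lipase Lpl (0.83), acetyl-CoA carboxylase Acaca (0.41) and the stearoyl-CoA desaturases Scd1 (0.93) and Scd2 (0.55), with edgeR adjusted p of 0.289, 0.383, 0.395 and 0.468. By genotype 2 of the 19 were higher in WT (all genes 3.12%), 6 in KO (all genes 3.73%) and 1 in KI (all genes 1.46%), and Lpl was among them in each (0.75, 0.88 and 0.85). Of 12 LXR partners and co-regulators such as the RXRs and NCoRs, 0 were higher or lower at that p over the 3 genotypes (median 0.031). Of 6 enzymes that make or clear oxysterols, 1 was higher, the sterol 27-hydroxylase Cyp27a1 (0.28, adjusted p = 0.571). Of 10 targets of SREBP2, the regulator of cholesterol synthesis, 0 passed in either direction over the 3 genotypes (median 0.094). By genotype the direction differed, with 1 of 10 above 0 in WT (median -0.21), 9 in KO (0.20) and 9 in KI (0.25). Within each genotype 0 passed at that p. Without WT 122 and KO 137 the medians were -0.30 in WT, 0.020 in KO and 0.25 in KI. Then 2 of 10 were lower in WT and 1 higher in KI at that p, where 878 and 1245 of all 25367 genes passed in either direction. The median difference of effects was 0.42 for KO against WT and 0.465 for KI against WT, beside -0.039 and -0.015 over all genes. Of these differences 0 of 10 passed for KO against WT and 2 of 10, both above 0, for KI against WT. The share of all genes is not given here for them.

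A last list held lipoprotein receptors that MYLIP acts on and its E2 partner enzymes. At an unadjusted p under 0.05 over the 3 genotypes, the VLDL receptor Vldlr was higher (0.31, adjusted p = 0.536) and the apolipoprotein E receptor Lrp8 lower (-0.58, adjusted p = 0.604), and the E2 enzymes did not pass, where 3.81% of all genes were higher and 4.46% lower. Without WT 122 and KO 137 the values were 0.18 for Vldlr and -0.16 for Lrp8, and neither was then under that p.

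**Figure D3:**
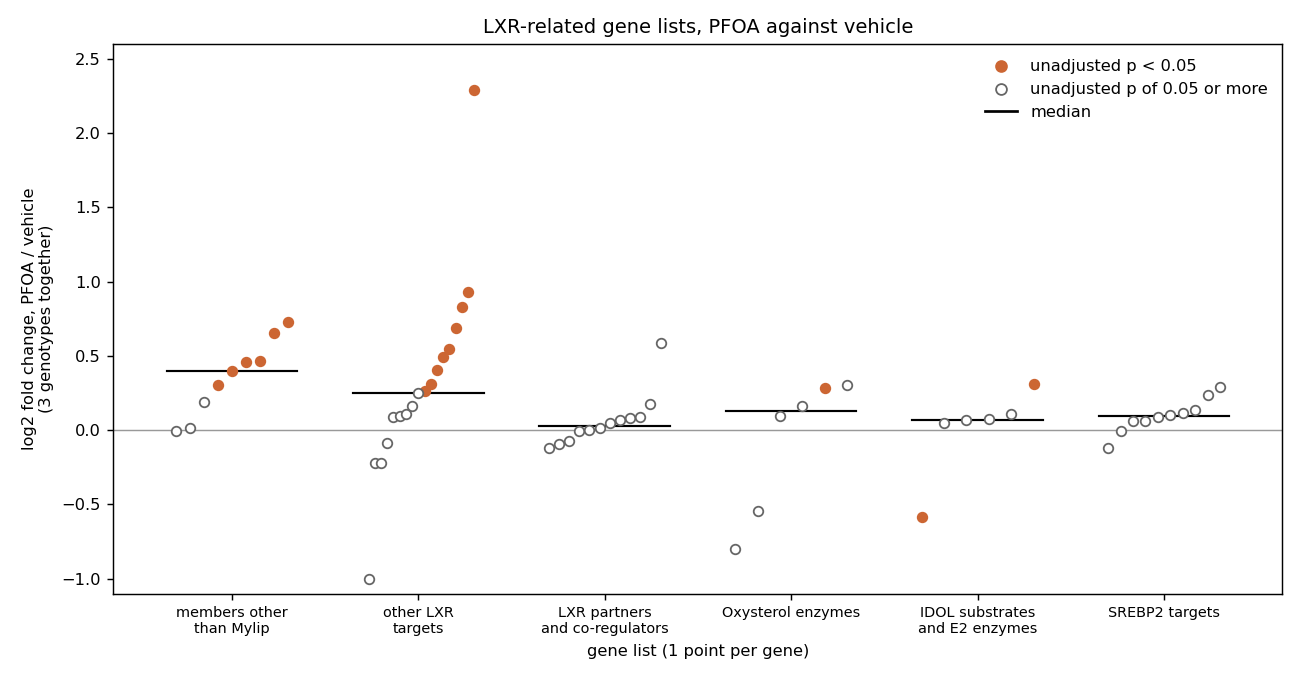
Log2 fold change of PFOA against vehicle over the 3 genotypes together for each gene of the 9 LXR genes other than Mylip and of 5 related lists, with 1 point per gene, filled at an unadjusted p under 0.05, and a line at the median. The 9 LXR genes (median 0.40) and the other LXR targets (median 0.25) hold most of the filled points, and the partners and SREBP2 targets hold none.

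Mylip's level over the 17 libraries was compared with those of 15506 genes that averaged 20 counts or more, by Pearson's r of log2 CPM. The 5 most alike were Stard5 (r = 0.897), a sterol-binding protein, Acp2 (0.881), a lysosomal acid phosphatase, the lincRNA AU020206 (0.877), Ehd4 (0.860), an endocytic ATPase, and Srebf1 (0.859). Among the other LXR genes r was 0.794 for Abca1, 0.792 for Abcg1, 0.710 for Lpcat3, 0.706 for Apoe, 0.678 for Smpdl3a, 0.596 for Pltp, 0.243 for Nr1h2 and -0.176 for Nr1h3. The points share exposure, genotype and 2 libraries of low coding share, and no p is given. Spearman's rho kept 4 of the 5 genes, and so did leaving out WT 122 and KO 137. Over the 8 vehicle libraries alone 1 of the 5 was kept, and over the 9 PFOA libraries alone 1. With the 6 group means taken away 0 of the 5 were kept, and Rnf167 (0.919), Oxa1l (0.911), Cyb561a3 (0.900), Gm49759 (0.884) and Abhd4 (0.867) led, so the most alike genes over all libraries were not those most alike within groups. Within groups r was 0.772 for Abca1, 0.726 for Abcg1, 0.697 for Srebf1 and 0.377 for Lpcat3. It was 0.632 for Apoe, 0.621 for Pltp, 0.602 for Smpdl3a, 0.354 for Nr1h2 and -0.535 for Nr1h3.

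**Figure D4:**
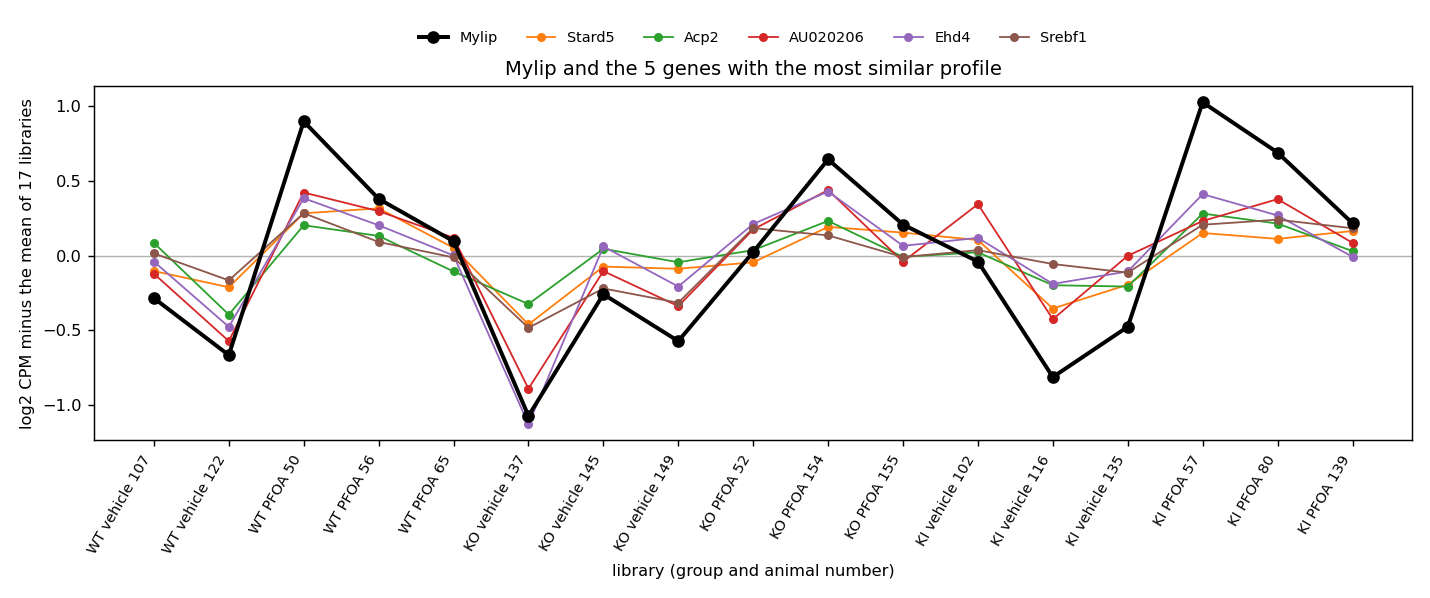
Log2 CPM of Mylip (black) and of the 5 genes with the highest Pearson r to it over 17 libraries (r from 0.859 to 0.897), each minus its own mean, by library. Lines join the values of a gene and carry no order. The 6 genes are lowest or near lowest in KO vehicle 137 and Mylip moves furthest, from about 1 below to 1 above its mean.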

How the data were processed

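Total lung RNA was made into libraries with a stranded total RNA kit. The authors trimmed reads, aligned them to mm10 with STAR 2.6 in Partek Flow, quantified them with an expectation-maximization model and deposited estimated counts per gene without normalization. The annotation release and the use of strand in counting are not given in the sources used here. Of the deposited estimated counts, 30.1% were not whole and were rounded here. The table held 31245 genes, and 4299 with under 20 counts in total were left out. Columns outside the sample list numbered 0.

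Groups came from the labels. The 10 genes, the lists and the markers were chosen with earlier results of these data known. Libraries were scaled by TMM in edgeR 4.0.16 (R 4.3.3) and the quasi-likelihood F-test was fitted over all 17 libraries and 26946 genes, with genotype and exposure as terms, or with 1 coefficient per group for the values within a genotype and their differences. Benjamini-Hochberg adjustment ran over the 26946 genes, and a call needed an adjusted p under 0.2 and a fold over 2. DESeq2 1.42.0 on the same genes, which is the test the study used, was an alternative here, beside median-of-ratios scaling, other filters, protein-coding genes alone, sex or i5 index as a covariate, and leaving out WT 122 and KO 137 or each library in turn. Exact permutations moved exposure within genotype (4000 arrangements) on log2(CPM + 1), two-sided. Likeness used log2 CPM with a prior count of 2. In simulated counts for PFOA over 26164 genes, 200 of 200 changed genes were recovered, with 14 other calls, at a median absolute log2 fold change of 1.98 among the changed genes, larger than that of any of the 10 genes. Coordinates are from GENCODE M21, in which 96.7% of symbols were found once. Named genes were the 10 genes, up to 4 genes per list by lowest unadjusted p, under 0.05, and the 5 genes most like Mylip by each of the main measures. Libraries of a group differed from one another by more than sampling noise (chi-square per degree of freedom of at least 6.28). P-values of edgeR and DESeq2 set a difference against the spread between animals, pooled over the groups and moderated over genes. With genotype and exposure as terms, that spread also holds any difference of the PFOA effect between genotypes. The permutation p rests on the rearranged exposure labels alone. Between 2 and 3 libraries a group and 4116116 to 9237385 counts a library set the precision. Some list values are not reported here.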

Additional observations from a re-analysis of the deposited data

How the results depend on the processing

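Over the 10 genes, the number called stayed at 0 in every comparison under the 8 settings other than leaving out single libraries, and it ran from 0 to 1 for PFOA over the 3 genotypes and from 0 to 3 for PFOA in WT when single libraries were left out. The 1 was Mylip, which was picked on this contrast, so nothing is read from it. The 3, without WT vehicle 107 and so from a fit with 1 vehicle library, were Abcg1 (1.76), Smpdl3a (1.26) and Mylip, which was picked on these libraries. Of the single values, 545 kept direction and side of the threshold under the other alternatives and 26 changed sign. Of the 5 genes most like Mylip, 0 were kept with deviations from group means.

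For PFOA over the 3 genotypes, Nr1h2 was -0.0071 by DESeq2, -0.0077 with median-of-ratios scaling, -0.0069 with the filter of edgeR, -0.021 on protein-coding genes, -0.0056 with i5 index as a covariate and -0.010 without WT 122 and KO 137, and Nr1h3 was 0.0080 with i5 index and 0.017 without the 2 libraries. For PFOA in KO the same 6 settings gave -0.029, -0.025, -0.031, -0.067, -0.048 and -0.040 for Nr1h2, and Nr1h3 was 0.0074 with no filter, 0.16 with i5 index and 0.039 without the 2 libraries. Pltp in WT was -0.034 without them. For KO against WT, Lpcat3 was -0.099 with sex as a covariate and Pltp 0.0044 on protein-coding genes and 0.020 without the 2 libraries. For KO against KI, Nr1h3 was -0.018 with sex and -0.0030 without the 2 libraries, which also turned Apoe (0.033), Smpdl3a (0.030) and Pltp (0.018). The cause was not tested.

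When single libraries were left out, some values changed sign. Their ranges on PFOA were -0.013 to 0.039 for Nr1h2 and -0.037 to 0.025 for Nr1h3 over the 3 genotypes, -0.054 to 0.083 for Nr1h3 and -0.032 to 0.55 for Pltp in WT, -0.040 to 0.068 for Nr1h2 and -0.049 to 0.039 for Nr1h3 in KO, and -0.12 to 0.078 for Nr1h3, -0.10 to 0.32 for Apoe and -0.066 to 0.10 for Pltp in KI. Between genotypes they were -0.21 to 0.12 for Abcg1, -0.013 to 0.18 for Lpcat3 and -0.095 to 0.12 for Pltp (KO against WT), -0.18 to 0.11 for Smpdl3a (KI against WT), and -0.030 to 0.058 for Nr1h3, -0.23 to 0.027 for Apoe, -0.30 to 0.023 for Smpdl3a and -0.22 to 0.012 for Pltp (KO against KI).

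The lowest count of any of the 10 genes in a library was 35. Groups of 2 or 3 libraries limit every value within a genotype. No paired analysis was possible because the animal numbers in the labels are not shared between groups.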
